A study of Mus musculus with 6 samples.

Results

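Macrophage activation and colony-stimulating factor genes were followed on expression arrays of tumor-bearing mouse colon after oral RG@M-γ-CD or PBS. The 10 genes are Csf1 and its receptor Csf1r, the macrophage surface and endosome genes Adgre1, Itgam and Cd68, the costimulatory genes Cd80 and Cd86, the activation genes Arg1 and Cd163, and Trem2. They were taken by symbol, and all of their probes were read, which gave 24 of the 56605 gene probes on the array. One probe stood for each gene, and 9 of the 10 genes were among the 19087 that were bright enough to be tested. Cd163 was not.

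The mice were male C57BL/6, bought at 6 to 8 weeks of age, with colitis-associated cancer (CAC) brought about by the carcinogen azoxymethane (AOM, 10 μg/g) and 2% dextran sodium sulfate (DSS) in the drinking water. RG@M-γ-CD is a particle of the multikinase inhibitor regorafenib held in mannose-modified γ-cyclodextrin, and it was given by mouth at 30 μg/g, which carries 10 μg/g regorafenib. PBS was given by mouth to the control mice. Treatment lasted 21 days and was followed by 14 days of observation, with 3 mice and 3 arrays per group. The model is chemically induced, and the tissue was taken whole, so that every level below is a sum over tumor, stroma, muscle and immune cells.

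CSF1 is a growth factor that macrophages need to survive and divide, and CSF1R is the receptor kinase that binds it. In the colon, macrophages are replenished from blood monocytes and carry the adhesion receptor encoded by Adgre1, CD11b (Itgam) and the endosomal protein CD68. Tumor-associated macrophages (TAMs) are often described between an inflammatory state, with costimulatory CD80 and CD86, and a tissue-repair state, with arginase-1 and the haemoglobin scavenger receptor CD163. TREM2 is a lipid-sensing receptor of tissue macrophages.

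Levels are log2 intensities after subtraction of the 75th percentile of the gene probes of that array, so that 0 is the level at that percentile and a difference of 1 is a 2-fold difference. Well above background were 49.6% to 55.2% of the gene probes on each array, and 0 gene spots were saturated. The tissue label was checked on its markers. All 11 colon epithelium markers were measured, with Muc2, the main secreted mucin, at 8.58 ± 0.39 in the PBS group (SD, n = 3), and 16 of 17 macrophage genes were measured too. Of 10 exocrine pancreas markers 3 were tested as well. One of them, Prss2, was above background on all 3 PBS arrays, at −3.05, −0.28 and −4.34, and on 0 of 3 RG@M-γ-CD arrays. It entered through the PBS group only, and the source of this signal was not tested.

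A point about the groups precedes the results. Groups were taken from the deposited labels, which place arrays 5, 6 and 7 in the RG@M-γ-CD group as replicates 1, 2 and 3, and arrays 8, 10 and 11 in the PBS group as replicates 1, 2 and 3. A clustered heat map of the study splits the same arrays into 6, 7 and 8 against 5, 10 and 11, without naming the conditions. That split was drawn from expression values of these same arrays, so p-values and overlap under it are a description and no test. RG@M-γ-CD replicate 1 and PBS replicate 1 are the arrays on which both groupings differ. Each member is therefore described as labelled, without RG@M-γ-CD replicate 1, and as arrays 6, 7 and 8 minus arrays 5, 10 and 11. All arrays lay on 1 slide, the 3 RG@M-γ-CD arrays and PBS replicate 1 in row 1 and the other PBS arrays in row 2.

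As labelled, the mean of all 9 measured members was lower after RG@M-γ-CD, by between 0.16 for Cd80 and 1.07 for Arg1 on the log2 scale. Of all genes tested, 52.8% had a negative change. The members' median change was −0.22, and the median over all genes was −0.01. Of the members, 0 passed an adjusted p of 0.05 in limma, where 0% of all genes passed, and 0 of 9 had an unadjusted p below 0.05, against 2.2% of all genes. The arrays of both groups overlapped for every measured member, while 4.57% of all genes had groups that did not overlap. The adjusted p of each member was 1.0 in limma.

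**Figure D1:**
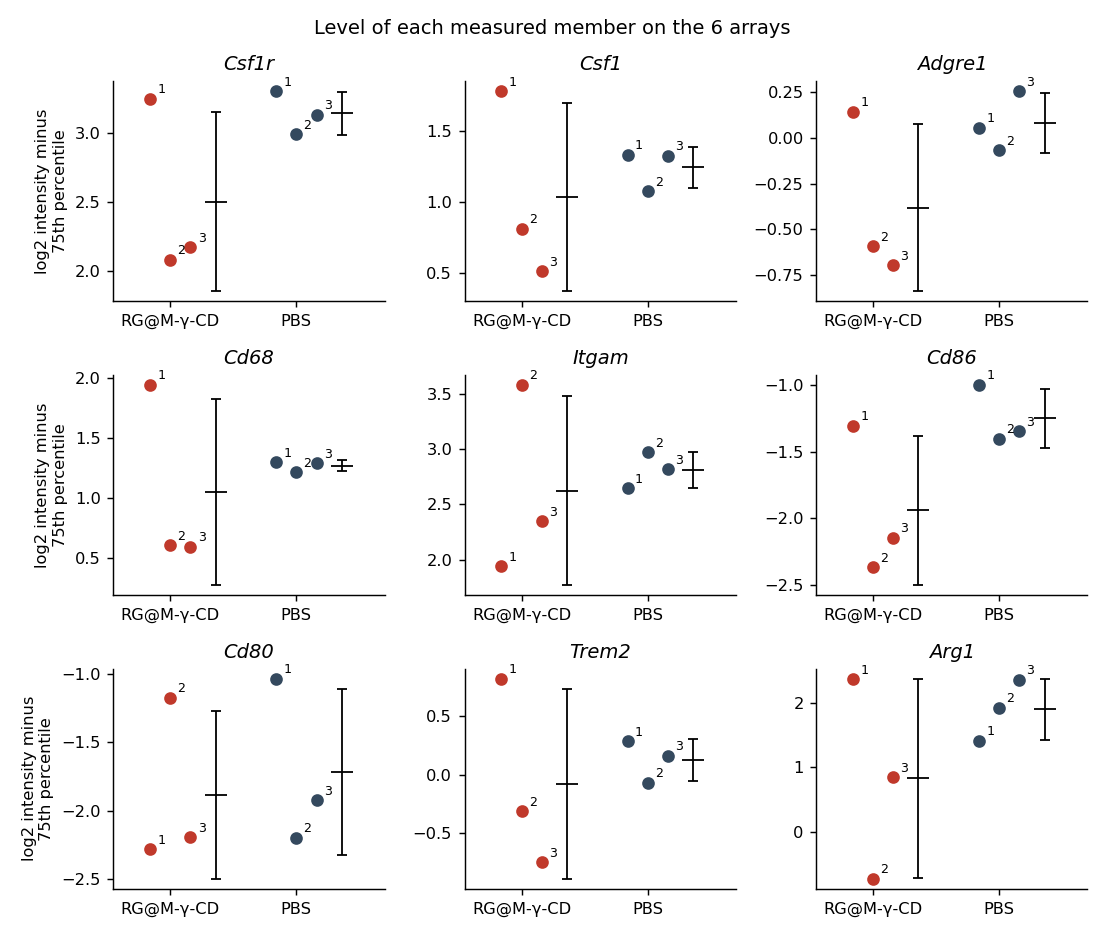
Level of each of the 9 measured members on the 6 arrays (y axis, log2 intensity minus the 75th percentile of the array, with its own range in each panel); each point is 1 mouse with its replicate number, and the bar beside each group is the mean ± SD (n = 3). In 7 panels RG@M-γ-CD replicates 2 and 3 lie below the 3 PBS mice while replicate 1 lies within or above them, and Itgam and Cd80 follow other orders.

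Csf1r, the receptor, read 3.25, 2.08 and 2.17 on the RG@M-γ-CD arrays and 3.31, 2.99 and 3.14 on the PBS arrays. Replicates 2 and 3 of the treated group lay below all PBS arrays, and replicate 1 lay among them. The change was −0.64 ± 0.33 (SE, limma; 95% confidence interval −1.44 to 0.16), a 1.56-fold lower mean. Its second, dimmer probe did not follow this pattern: it was also above background on all 6 arrays, but its change was −0.11, and its lowest array was RG@M-γ-CD replicate 1.

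Csf1, the ligand, had a change of −0.21 ± 0.34 (SE, limma). Its levels were 1.78, 0.81 and 0.51 after RG@M-γ-CD and 1.33, 1.08 and 1.32 after PBS. The treated arrays thus held both the highest and the lowest levels of the series, a 2.41-fold span, while the PBS mice spread by an SD of 0.15 only. The other Csf1 probes, which overlap each other and were measured on all 6 arrays as well, gave changes of −0.13 and −0.06 and again put replicate 1 highest and replicate 3 lowest.

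The other growth factors of this family and their receptors were read beside them. Apart from Csf1 and Csf1r, 5 of these genes were tested, 4 with a lower and 1 with a higher mean, at a median change of −0.10, and 0 passed the adjusted threshold. In the other grouping 3 of the 5 were lower, at a median of −0.05. Csf2rb2, a receptor subunit of the interleukin-3 system, had the only unadjusted p below 0.05, at −0.02 ± 0.47 after RG@M-γ-CD and 0.69 ± 0.26 after PBS (SD, n = 3). The growth factor genes Csf2 and Csf3 were not bright enough to be tested. Il34, the second ligand of CSF1R, had a change of −0.08.

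Adgre1 encodes the surface receptor by which mouse macrophages are usually sorted. Its levels were 0.14, −0.59 and −0.70 after RG@M-γ-CD and 0.06, −0.07 and 0.26 after PBS. The change of −0.47 ± 0.26 (SE, limma) again rested on replicates 2 and 3, and replicate 1 lay between the PBS mice. A second Adgre1 probe was above background on 1 array only.

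Cd68 encodes a glycoprotein of macrophage endosomes. Replicate 1 of the treated group gave 1.94, the highest value of the series, replicates 2 and 3 gave 0.61 and 0.60, and the PBS mice lay together at 1.30, 1.22 and 1.29. The change was −0.22 ± 0.38 (SE, limma). The second measured Cd68 probe had a change of −0.26, with replicate 1 again highest.

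Trem2, which has 1 probe on the array, read 0.82, −0.31 and −0.75 after RG@M-γ-CD and 0.28, −0.07 and 0.16 after PBS, a change of −0.21 ± 0.40 (SE, limma). For Cd68, Csf1 and Trem2 RG@M-γ-CD replicate 1 was the highest of the 6 arrays, and replicates 2 and 3 were the lowest. Of the 15 tested genes of a TREM2 and lipid-handling list, 10 had a lower and 5 a higher mean at a median change of −0.06, and 13 were lower at −0.23 in the other grouping. Without RG@M-γ-CD replicate 2 this median was 0.05. When Trem2 itself was taken out of the list, 9 of 14 were lower, at −0.06, and 12 of 14 in the other grouping, at −0.21. The signalling partner of TREM2, Tyrobp, had a change of −0.56 ± 0.48, and Plcg2, a phospholipase downstream of it, −0.36 ± 0.25.

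Promoters of 6 members could be read from RefSeq (GRCm38.p6), and those of Cd68 and Trem2 are shown since both genes were highest on the same array and lowest on the same pair. The 250 bases before the start of each were searched for GAGGAA and its reverse complement TTCCTC, the core letters bound by PU.1, a factor of macrophage genes. Capitals mark the matches, and the sequences run 5′ to 3′ on the strand of the gene.
Cd68, minus strand, chr11:69666171-69666420: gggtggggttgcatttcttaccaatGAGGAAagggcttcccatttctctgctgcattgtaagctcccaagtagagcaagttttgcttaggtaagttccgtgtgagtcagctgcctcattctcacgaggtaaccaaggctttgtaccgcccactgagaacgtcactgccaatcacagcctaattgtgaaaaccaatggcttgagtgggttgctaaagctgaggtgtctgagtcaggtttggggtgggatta
Trem2, plus strand, chr17:48346151-48346400: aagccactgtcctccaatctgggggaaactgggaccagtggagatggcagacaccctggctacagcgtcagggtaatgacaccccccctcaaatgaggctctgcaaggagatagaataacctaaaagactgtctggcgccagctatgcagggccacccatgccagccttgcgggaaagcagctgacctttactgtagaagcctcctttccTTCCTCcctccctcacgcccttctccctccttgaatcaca
The match of Cd68 began 225 bases and that of Trem2 40 bases before the start. Itgam held 2 matches, and Csf1, high and low on the same arrays, held 0. The windows of Cd80 and Cd163 held 0 too. Of these, the Cd80 window lies inside its gene and the Cd163 window runs past the first base of its gene, as given in RefSeq. Of 32851 mouse promoters of this length 23.3% held the letters on either strand, so that a match describes the window and no more.

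Cd86, a ligand of CD28 on T cells, had the largest change after Arg1, −0.69 ± 0.31 (SE, limma; 95% confidence interval −1.43 to 0.04), a 1.61-fold lower mean. It read −1.30, −2.37 and −2.15 after RG@M-γ-CD and −1.0, −1.40 and −1.35 after PBS. Replicate 1 of the treated group was the array that kept the groups overlapping, just above PBS replicates 2 and 3. A second, dimmer Cd86 probe was above background on 2 of 3 treated and 3 of 3 PBS arrays, so that its readings of −3.78, −4.37 and −3.90 against −3.54, −3.77 and −3.74 are no independent support. Cd86 was also among the 3 genes whose levels lay closest to those of Csf1r over the 6 arrays after each gene's mean was removed. The root mean square difference was 0.09 for Cd86, 0.07 for Bcl2a1d, an inhibitor of apoptosis in leukocytes, and 0.08 for Slc11a1, a metal transporter of phagosomes, where Csf1r itself varied by 0.50.

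Cd80, the partner of CD86 in binding CD28, has 4 probes. Its brightest probe, at chr16:38486772-38486831 (mm9), read −2.28, −1.17 and −2.19 after RG@M-γ-CD and −1.03, −2.20 and −1.92 after PBS, with a change of −0.16 ± 0.42 (SE, limma). The highest levels came from 1 mouse of each group, RG@M-γ-CD replicate 2 and PBS replicate 1. A second probe, at chr16:38474174-38474233 (mm9, plus strand), was much dimmer, and its sequence is shown because its readings differ from those of the brightest probe.
Cd80 second probe: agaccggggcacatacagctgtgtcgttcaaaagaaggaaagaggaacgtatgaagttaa
It was not well above background on any RG@M-γ-CD array and was so on 2 of 3 PBS arrays, with readings of −6.11, −6.34 and −6.46 against −4.32, −5.04 and −3.27. The probe was too dim to be tested, and PBS replicate 2, at −5.04, lay below background as well, so no fold is given. The other 2 Cd80 probes were above background on 0 of 6 arrays. Of 8 genes of B7 costimulation 7 were tested, and 6 had a lower mean, at a median change of −0.38, but in the other grouping 3 were lower at a median of 0.05. Without Cd80 and Cd86, 4 of 5 were lower, at −0.38, and 2 of 5 in the other grouping, at 0.05. Icos, a costimulatory receptor of activated T cells, lay lower on all treated arrays, with a change of −0.95 ± 0.30 as labelled, −1.29 ± 0.18 without RG@M-γ-CD replicate 1 (adjusted p = 0.044) and −0.77 in the other grouping (SE, limma). Pdcd1lg2, which encodes PD-L2, was above background on all PBS arrays and on 1 of 3 treated arrays, and entered through the PBS group only, at −3.50 ± 0.11 against −4.41 ± 0.51 (SD, n = 3).

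Arg1 encodes arginase-1, which splits arginine and marks repair-type macrophages, although other cells make it too. Its single probe lies at chr10:24636194-24636253 (mm9, minus strand), and the sequence is given as it carries the whole measurement.
Arg1 probe: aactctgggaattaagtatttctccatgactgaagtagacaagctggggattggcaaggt
Arg1 read 2.36, −0.72 and 0.85 after RG@M-γ-CD and 1.41, 1.92 and 2.35 after PBS. The change of −1.07 ± 0.74 (SE, limma; 95% confidence interval −2.85 to 0.72) was the largest of the members, and so was the span, 8.43-fold between RG@M-γ-CD replicates 1 and 2. The 3 genes closest to it over the arrays were Mmp7, a matrix metalloproteinase of epithelial and tumor cells, Prom2 and Slc26a9, an anion transporter of epithelia, with root mean square differences of 0.14 to 0.17 where Arg1 varied by 1.07. Without RG@M-γ-CD replicate 2 the change was −0.29.

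Nos2, the inducible nitric oxide synthase that uses the same substrate as arginase, stood at 0.76 ± 0.73 after RG@M-γ-CD and 2.92 ± 0.68 after PBS (SD, n = 3), with no overlap and a change of −2.16 ± 0.47 (SE, limma; adjusted p = 1.0). In the other grouping its change was −0.98 (limma, adjusted p = 0.522). Of the 8 tested genes of arginine metabolism 6 had a lower mean, at a median of −0.08, which was 0.03 when RG@M-γ-CD replicate 2 was left out. Without Arg1, 5 of 7 were lower, at −0.06. Of 15 tested genes of classical activation 14 had a lower mean, at a median of −0.81, and in the other grouping 9 were lower, at −0.28. Of these 15 genes 13 were above background on all 6 arrays, and Cd40 and Marco were not. Without the members in this list 12 of 13 were lower, at −0.89, and 8 of 13 in the other grouping, at −0.28. Ccl5, a chemokine for T cells, and Il23a, a subunit of interleukin-23, had changes of −0.91 and −1.05 as labelled and 0.06 and −0.49 in the other grouping. Of 14 tested genes of alternative activation 9 were lower, at a median of −0.44, and 8 of 14 at −0.17 in the other grouping. Without Arg1, which is in this list, 8 of 13 were lower, at −0.27, and 7 of 13 in the other grouping, at −0.17. As labelled, 12 of the 14 were above background on all 6 arrays, and Pdcd1lg2 and Retnla were not. Ccl17, a chemokine, had changes of −0.90 and −0.69 in these groupings and the scavenger receptor Msr1 −0.76 and −0.54. In each of these lists 0 genes passed the adjusted threshold in both groupings, and Il1b of the classical list alone passed it when RG@M-γ-CD replicate 1 was left out.

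Cd163 was not measured in this tissue. It has 2 probes. One was well above background on none of the 6 arrays and the other, at chr6:124270436-124270495 (mm9), only on RG@M-γ-CD replicate 1, at −3.93, with the remaining arrays between −6.86 and −6.29. The arrays therefore give no comparison for this receptor. Of 9 genes of haemoglobin and iron handling 7 were tested and 6 had a lower mean, at a median of −0.17. Hmox1, the heme oxygenase that acts after haemoglobin uptake, stood at 1.02 ± 0.56 after RG@M-γ-CD and 1.91 ± 0.21 after PBS (SD, n = 3), without overlap, and its change in the other grouping was −0.44.

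**Figure D2:**
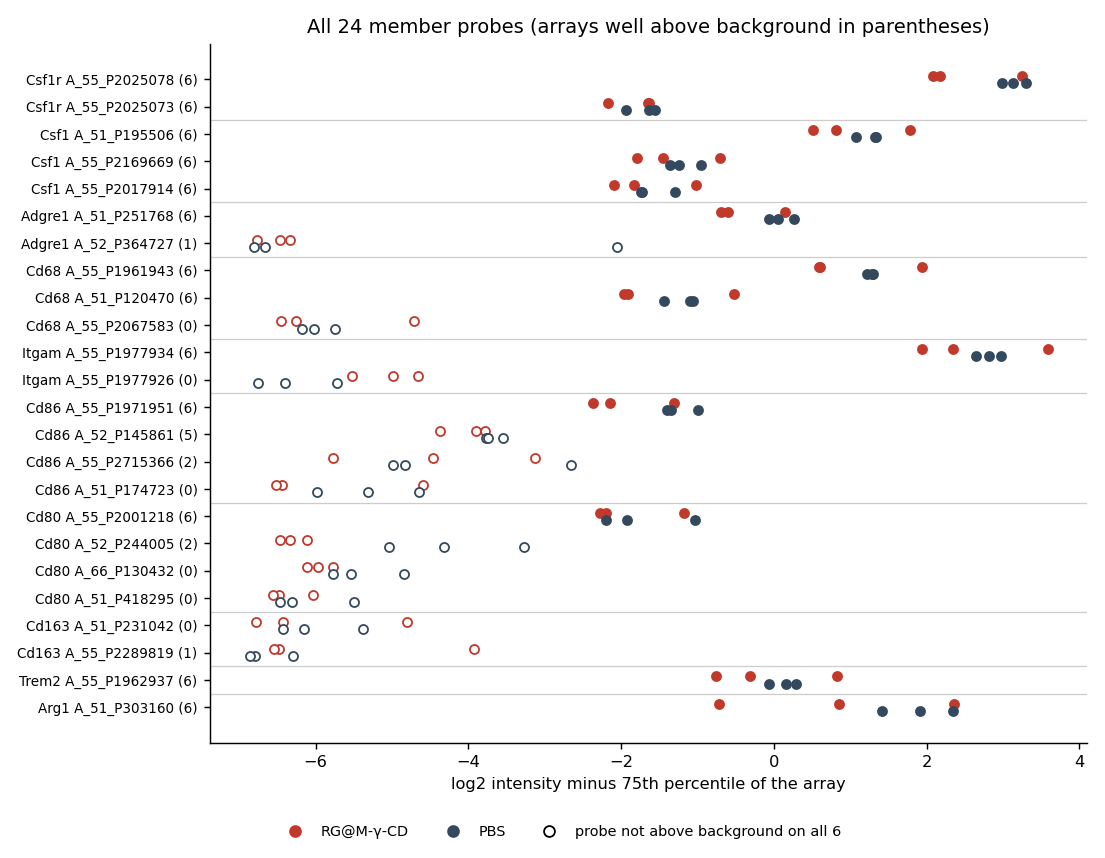
All 24 probes of the 10 genes (y axis, with the number of arrays well above background in parentheses) and their level on each array (x axis, log2 intensity minus the 75th percentile of the array), RG@M-γ-CD in red and PBS in dark blue. Filled points mark probes measured on all 6 arrays; both Cd163 probes and the second Itgam probe lie at the dim end.

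Itgam encodes CD11b, a chain of complement receptor 3. Its level was 1.94, 3.58 and 2.35 after RG@M-γ-CD and 2.65, 2.97 and 2.82 after PBS, a change of −0.19 ± 0.42 (SE, limma). Its order over the arrays was not that of the other macrophage genes: RG@M-γ-CD replicate 2 was highest and replicate 1 lowest. The reading came from 1 probe, at chr7:135261755-135261814 (mm9, plus strand), since the other Itgam probe was above background on 0 of 6 arrays. The first 30 bases of the 60 are shown because they set this probe apart from those of the other members. Capitals mark 10 CA units in a row.
Itgam probe, first 30 bases: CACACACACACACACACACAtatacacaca
The array holds 42 gene probes with 8 or more CA in a row, and 40 of them, Itgam included, were above background on all 6 arrays. RG@M-γ-CD replicate 2 was the highest array for 40 of these 40, and for 21.8% of the 26540 gene probes measured on all arrays. After removal of each probe's mean, their median level was −0.74, 0.59 and −0.16 on the RG@M-γ-CD arrays and 0.03, 0.23 and 0.03 on the PBS arrays. Itgam stood at −0.78, 0.87 and −0.37 and at −0.07, 0.25 and 0.10. The root mean square difference between Itgam and that median was 0.15, and between 0.43 and 1.37 for the other 8 members. This comparison was made after the order of Itgam had been seen. Of the other complement receptor integrin genes, Itgal, the chain of LFA-1, had a change of −0.64 ± 0.24 (SE, limma). Without Itgam 4 of 5 tested had a lower mean, at a median of −0.54, and 3 of 5 in the other grouping, at −0.34.

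**Figure D3:**
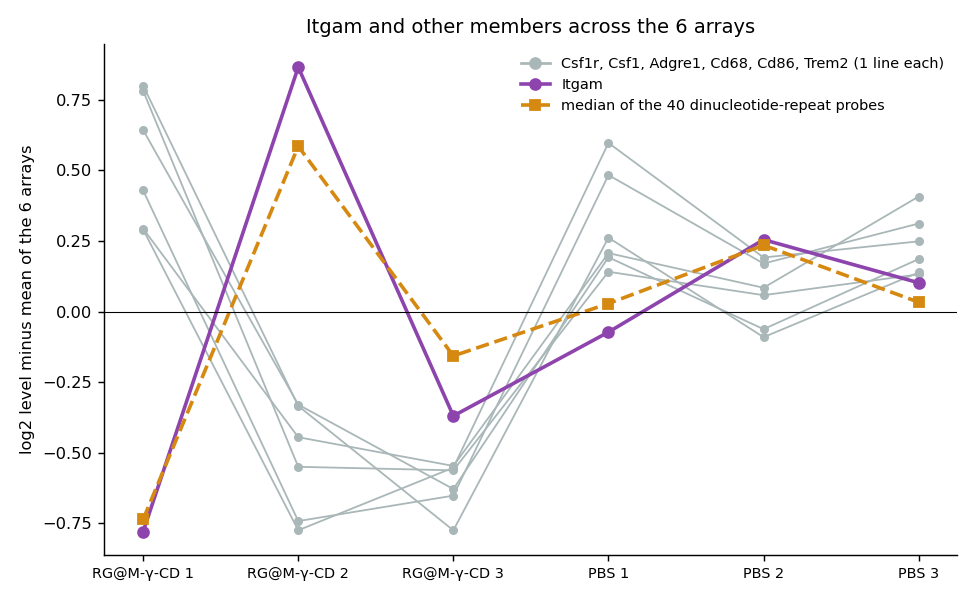
Level on each array after removal of the mean over the 6 arrays (y axis, log2), for Itgam (purple), the median of the 40 probes with 8 or more CA in a row (dashed orange) and 6 other members (grey, 1 line each). Itgam runs close to the line of the repeat probes, highest on RG@M-γ-CD replicate 2, where the 6 members drawn are low; Arg1, low there too but on a wider scale, and Cd80, high there, are left out.

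RG@M-γ-CD replicate 1 decided the size of most changes. Without it, 7 of 9 members (Csf1r, Csf1, Adgre1, Cd68, Cd86, Trem2 and Arg1) had a lower mean with an unadjusted p below 0.05, where 5.43% of all genes did, and the same 7 had treated arrays below all PBS arrays, where 12.2% of all genes did. The changes were then −1.02 ± 0.18 for Csf1r, −1.01 ± 0.20 for Cd86, −0.73 ± 0.18 for Adgre1, −0.67 ± 0.16 for Cd68, −0.66 ± 0.22 for Trem2, −0.58 ± 0.19 for Csf1 and −1.83 ± 0.51 for Arg1 (SE, limma). Of the members 0 passed the adjusted threshold, which 206 genes (1.06%) passed, and the smallest adjusted p was 0.07, for Csf1r (limma). Cd80 and Itgam then had positive changes of 0.03 and 0.15. For the 7 members replicates 2 and 3 already lay below all PBS arrays, so leaving out replicate 1 fixed the lack of overlap in advance. Replicate 1 was singled out after its levels had been seen, and for these members it lay within or above the PBS arrays. The p-values and confidence intervals without it are therefore a description and no test. Other omissions gave fewer members with an unadjusted p below 0.05 in limma. Without RG@M-γ-CD replicate 2 there was 1 (2.74% of all genes), and it was Itgam, at −0.67, which is not among the 7. Without replicate 3 or any PBS array there were 0 (1.25% to 2.36% of all genes).

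The direction of some of these members also depended on replicate 3. Without RG@M-γ-CD replicate 3, 6 of 9 members were lower, and Cd68, Csf1 and Trem2 had changes of 0.01, 0.05 and 0.13. For Csf1r, Cd86, Adgre1 and Arg1 the change stayed negative when any single array was left out, between −1.02 and −0.43 for Csf1r, −1.01 and −0.48 for Cd86, −0.73 and −0.31 for Adgre1 and −1.83 and −0.29 for Arg1. Cd80 had a change of 0.18 without PBS replicate 1.

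In the grouping of the heat map, 7 of 9 members were lower on arrays 6, 7 and 8, where 63.8% of all genes were lower. Arg1 had a change of −1.69 ± 0.53 (SE, limma; adjusted p = 0.297) and was the only member with an unadjusted p below 0.05 and with groups that did not overlap, where 16.5% and 25.5% of all genes met these criteria. The adjusted threshold was passed by 0 members and by 5 genes (0.0259%). Csf1r, Cd86, Adgre1, Cd68, Csf1 and Trem2 had changes between −0.65 and −0.49, and Cd80 and Itgam had changes of 0.67 and 0.28. The members' median was −0.52 beside −0.12 for all genes. Since this grouping was drawn from the expression values, its p-values and overlap counts describe the split and do not test it.

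**Figure D4:**
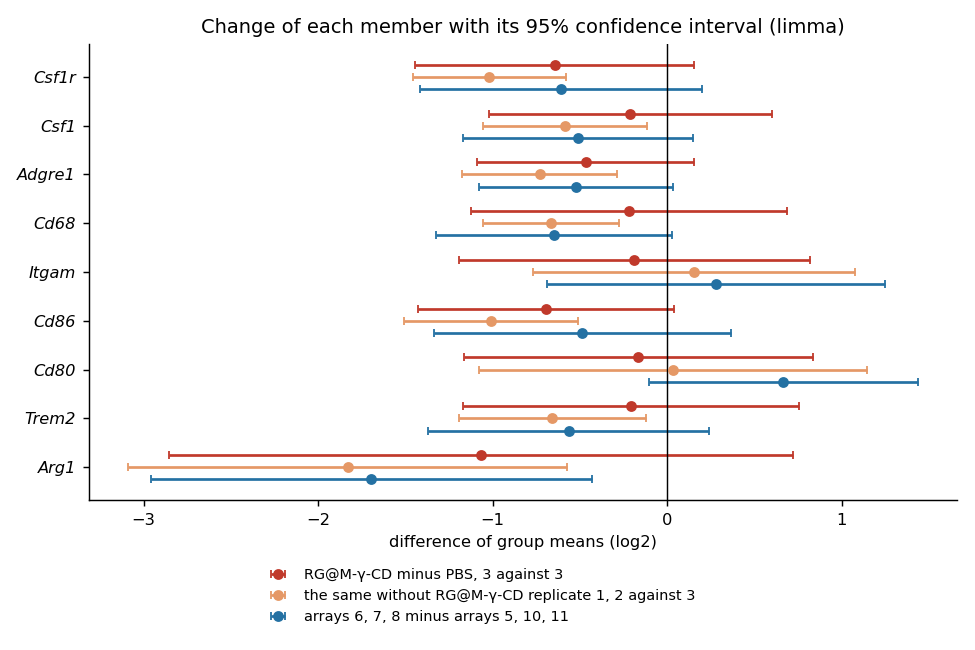
Change of each member (x axis, difference of group means in log2, with its 95% confidence interval from limma) as labelled, without RG@M-γ-CD replicate 1, and as arrays 6, 7 and 8 minus arrays 5, 10 and 11. All intervals of the labelled groups include 0. Without replicate 1 the intervals of 7 members lie below 0, and those of Itgam and Cd80 include 0. Replicate 1 was singled out after its levels had been seen, so these intervals are a description and no test.

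The level of macrophage genes as a whole moved with the members. Of the 16 tested macrophage genes, which include Csf1r, Adgre1, Cd68 and Itgam, 14 had a lower mean, at a median of −0.44, and 13 were lower in the other grouping, at −0.58. Their mean level, taken relative to each gene's mean over the 6 arrays, was 0.32, −0.36 and −0.56 on the RG@M-γ-CD arrays and 0.26, 0.08 and 0.25 on the PBS arrays. Without the members in this list 10 of 12 had a lower mean, at a median of −0.47, and 10 of 12 in the other grouping, at −0.58. In whole tissue, the number of macrophages, the RNA per macrophage and the share of other cells, such as muscle, cannot be told apart.

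Set against the mean of Csf1r and Adgre1 on the same array, some members had differences of the other sign. Cd68 was 0.33 higher relative to these receptors after RG@M-γ-CD, at 0.24, −0.13 and −0.14 against −0.38, −0.25 and −0.41. Csf1 was 0.34 higher, at 0.08, 0.07 and −0.23 against −0.35, −0.39 and −0.37. The reference genes are themselves members, with larger decreases (−0.64 and −0.47) than Cd68 (−0.22) and Csf1 (−0.21). The higher relative means therefore follow from the choice of reference, and no share over all genes was computed on this scale. With overlapping groups, Trem2 was 0.35, Cd80 0.39 and Itgam 0.37 higher, Cd86 0.14 lower and Arg1 0.51 lower. These differences are a description and were not tested.

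Markers of other cells moved over the same arrays. Neutrophil genes (10 of 12 tested, 6 of them above background on all arrays) had mean relative levels of 0.94, −1.40 and −0.89 on the RG@M-γ-CD arrays and 0.55, 0.00 and 0.81 on the PBS arrays, high and low on the same treated arrays as the members. Of these genes 8 had a lower mean, S100a8, a calcium-binding protein of neutrophils, by 2.52 ± 1.40 (SE, limma). Camp, which encodes a granule peptide, was higher on all treated arrays, by 0.54 ± 0.21, with the only unadjusted p below 0.05 (limma). It was above background on 2 of 3 PBS arrays, so it entered through the treated group only, where it is high. Smooth muscle genes, 6 of 6 with a higher mean, ran the other way, at −1.47, 1.23 and 1.59 against −0.31, −0.68 and −0.37, with a change of 1.05 ± 0.85 for Myh11, the smooth muscle myosin. When RG@M-γ-CD replicate 1 was left out, 4 of these 6 (Acta2, Cnn1, Myh11 and Tagln) were higher past the adjusted threshold in limma. The neutrophil genes Cxcr2 and S100a9 were lower past it. Cxcr2 was not above background on all arrays. In that setting 0 members passed. All 6 T cell markers had a lower mean, at a median of −0.47, as had 5 of 8 monocyte markers, whose median was −0.31. Dendritic cell markers had a median of −0.38 as labelled and −0.005 in the other grouping. B and plasma cell markers turned, from a median of −0.43 to 0.79 in the other grouping and to 0.28 without PBS replicate 1. Leaving out any other array kept their median negative, between −1.03 (without PBS replicate 3) and −0.23. Colon epithelium genes were split, 6 higher and 5 lower, at a median of 0.01. The 3 tested exocrine pancreas genes, 2 lower and 1 higher, had mean relative levels of −1.23, −0.96 and −0.84 on the RG@M-γ-CD arrays. On the PBS arrays they stood at 0.23, 2.80 and 0.01, highest on PBS replicate 2, and 1 of the 3 was above background on all arrays. The part of these cell types in the members' changes was not tested.

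**Figure D5:**
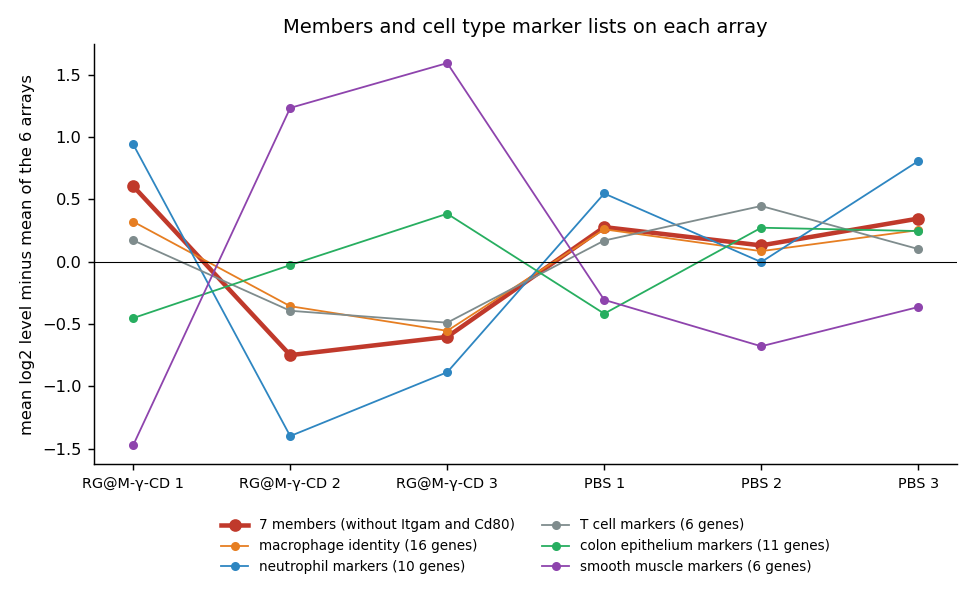
Mean level on each array (y axis, log2, after removal of each gene's mean over the 6 arrays) of 5 marker lists and of the 7 members other than Itgam and Cd80, a selection made after their levels were seen. The members, macrophage and neutrophil genes are low on RG@M-γ-CD replicates 2 and 3, where smooth muscle genes are high, and the reverse is seen on replicate 1.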

How the data were processed

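The authors scanned 1 array per mouse, and the deposited scanner output (Agilent Feature Extraction 10.7.1.1, per the labels) holds a background-corrected intensity for each spot, not normalized between arrays. The log2 values of the value table deposited by the authors were used as an alternative only; the methods name the software behind that table and not the normalization.

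Control and outlier spots were dropped (R 4.3.3; package data.table, version 1.17.8), spots of a probe were averaged and the 75th percentile of each array was subtracted. A probe entered when every array of either group had it well above background, and the brightest such probe of each gene was tested with limma 3.58.1 and Benjamini-Hochberg adjustment at 0.05 over all genes. Symbols followed the accession for 32994 probes and the file's name for 23611. The fit was tested on simulated data. Coordinates of probes are mm9, and promoters GRCm38.p6, both as given.

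The members and lists were chosen with earlier results of these data known. Beside the members, the text names the list genes at an unadjusted p below 0.05 (otherwise the 2 with the smallest p, or for cell type markers with the largest change, not all printed) and the 3 genes closest to Csf1r and to Arg1. Il34, Csf2 and Csf3 were added to complete the receptor and ligand family. Camp was added as the neutrophil gene with an unadjusted p below 0.05. Il1b, Acta2, Cnn1, Tagln and S100a9 were added as list genes that passed the adjusted threshold without RG@M-γ-CD replicate 1. One gene that the rule names is not reported here. Alternatives were quantile normalization, normexp with an offset of 50, the authors' table, no filter, the mean of a gene's probes, a replicate or slide row block, the methods' t-test, the other grouping and leaving out each array. Precision is limited by 3 arrays per group.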

Additional observations from a re-analysis of the deposited data

How the results depend on the processing

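The 9 measured members were lower under quantile normalization, normexp, the authors' table, the mean of a gene's probes and both blocks, and 10 of 10 with no filter on dim probes, where Cd163 entered below background. The mean of a gene's probes gave −0.38 for Csf1r and −0.13 for Csf1, and normexp −0.45 for Cd86. Leaving out 1 array gave 6 to 9 lower members. Directions turned for Cd80 (between −0.52 and 0.18 when 1 array was left out, 0.034 for RG@M-γ-CD replicate 1, and 0.67 in the other grouping), Itgam (between −0.67 and 0.15, and 0.28 in the other grouping), Cd68 (between −0.67 and 0.0058), Csf1 (between −0.58 and 0.051) and Trem2 (between −0.66 and 0.13); the cause was not tested.

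Over all genes, 0 passed the adjusted threshold as labelled, 0 to 206 when 1 array was left out, and 5 in the other grouping. In that grouping the count was 3 with quantile normalization, with normexp and with the authors' table, 2 with no filter, 9 with the mean of a gene's probes, 0 with the methods' t-test and 0 to 506 when 1 array was left out.

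Samples shared only replicate numbers, whose deviations correlated at −0.25, −0.23 and 0.14. With the replicate block, 0 genes passed and all 9 members stayed lower. The slide row block compares the RG@M-γ-CD arrays with PBS replicate 1 alone. It gave 0 genes, shifted the median of all genes from −0.01 to 0.10, and moved Arg1 to −0.58, Cd80 to −0.85, Itgam to −0.02 and Trem2 to −0.36.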
